A study of Mus musculus with 66 samples.

Results

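Transcript levels of Tfe3, its relatives and lysosomal genes were followed in mouse embryonic stem cells that carry a deletion at Praf2, a gene on chromosome X close to Tfe3. The group holds 44 genes named by symbol, listed by their known roles with no threshold on measured values, out of 55487 gene identifiers in the tables: 8 genes of the MiT factors and their Flcn-Rag regulators, 8 lysosomal membrane proteins, 8 proteases, 9 glycosidases, 6 genes of lipid handling and cofactors, and 5 subunits of the proton pump. All 44 were found, and 43 passed the filter on low counts. The exception was Ctsh, a cathepsin, at 0 to 0.217 CPM (counts scaled to a common library size) in every library.

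RNA was sequenced from untreated cells of the E14 line, grown with serum, LIF and inhibitors of GSK and MEK. Wildtype cells had 3 libraries, and cells with a G4 deletion at Praf2 as their genotype had 4, a G4 or G-quadruplex being a fold that guanine-rich strands can form. The deletion libraries are named GDel1 (2 libraries) and GDel2 (2 libraries). Libraries held 12316853 to 18762704 expected counts, and transcripts of the mitochondrial genome took 4.83% to 6.89% of them in 5 libraries but 9.91% in GDel1 replicate 1 and 9.60% in GDel2 replicate 2. Nothing in the labels tells if the deletions come from 1 clone or several, or if replicates were cultured apart, so p-values measure only the spread between these libraries, which may be technical. All 11 markers of naive pluripotency were detected in every group, with summed levels of 4681 to 6079 CPM per library. In GDel2, 5 of the 11 were lower than in wildtype (45.5%, against 15.6% of all genes tested). Among them were Tfcp2l1 (log2 fold change -0.81, adjusted p = 0.00114) and Dppa5a (-0.81, adjusted p = 0.00893). Another 2 were higher (18.2%, against 17.4% of all genes), Zfp42 (1.15, adjusted p = 5.81e-05) and Nanog (0.40, adjusted p = 0.00956). Praf2 was at 27.5, 28.8 and 30.6 CPM in wildtype, 10.1 and 9.26 in GDel1, and 13.1 and 14.1 in GDel2, so all 4 deletion libraries were below wildtype.

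Lysosomes are acidic organelles that break down proteins, glycans and lipids. The MiT factors Tfe3, Tfeb and Mitf are basic helix-loop-helix transcription factors that bind an E-box element in many lysosomal promoters. When amino acids are plentiful, the Rag GTPases, helped by Flcn with Fnip1 or Fnip2, bring these factors to the lysosome surface, where mTORC1 phosphorylates them and keeps them out of the nucleus. In mouse embryonic stem cells, Tfe3 is known as a factor of self-renewal whose exclusion from the nucleus by Flcn accompanies the exit from pluripotency. The question followed here is whether these regulators and their lysosomal targets changed with Tfe3.

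The element that MiT factors bind is shown in the promoters of members, since it is the feature through which these genes are known to be linked. RefSeq promoter windows of GRCm38.p6, 300 bases long with 250 before and 50 after the start, were found for 39 of 44 members. The E-box CACGTG lay in the window of 14 of 39 members (35.9%), against 8.09% of 27025 genes. Its longer form TCACGTGA, which includes the shorter one, lay in 7 of 39 (17.9%), against 1.12% of genes. Both motifs read the same on either strand. In the stretches below, written 5′ to 3′ on the strand of the gene, capitals mark TCACGTGA, and in Lamp1, which has 4 copies of the short form, CACGTG.
Ctsa (chr2:164833734-164833772, plus strand): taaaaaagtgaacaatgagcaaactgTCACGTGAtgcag
Cln3 (chr7:126583325-126583384, minus strand): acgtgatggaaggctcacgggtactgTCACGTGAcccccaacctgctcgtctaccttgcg
Ctsd (chr7:142387893-142387952, minus strand): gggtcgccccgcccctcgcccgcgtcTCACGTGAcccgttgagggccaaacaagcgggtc
Gla (chrX:134601167-134601255, minus strand): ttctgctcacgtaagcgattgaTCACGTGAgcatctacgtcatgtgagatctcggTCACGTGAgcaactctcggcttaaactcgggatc
Mcoln1 (chr8:3500447-3500506, plus strand): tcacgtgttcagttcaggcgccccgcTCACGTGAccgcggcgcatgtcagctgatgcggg
Atp6v1a (chr16:44139358-44139417, minus strand): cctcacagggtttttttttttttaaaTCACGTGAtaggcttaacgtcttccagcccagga
Atp6v0d1 (chr8:105566061-105566094, minus strand): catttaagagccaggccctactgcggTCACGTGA
Lamp1 (chr8:13159074-13159160, plus strand): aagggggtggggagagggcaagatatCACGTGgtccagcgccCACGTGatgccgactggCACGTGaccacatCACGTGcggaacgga

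**Figure D1:**
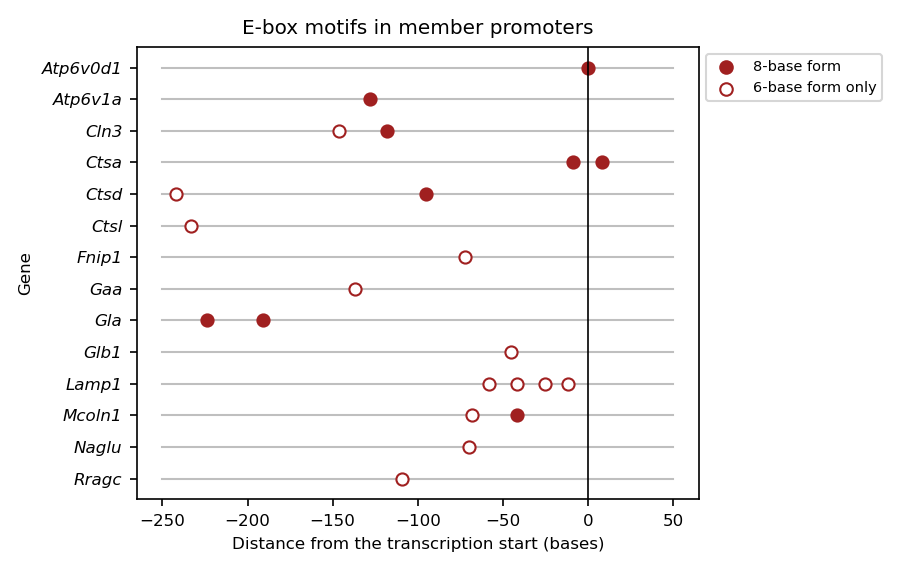
Distance in bases between the transcription start (vertical line) and the centre of each E-box in the 14 member promoters that hold one, with filled circles for the 8-base form and open circles for the 6-base form alone. Most lie before the start, with 4 short forms close together in Lamp1.

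Of the promoters shown, those of Ctsa and Cln3 belong to genes that fell in GDel2, while Ctsd, Gla, Mcoln1, Atp6v1a, Atp6v0d1 and Lamp1 did not pass the test there. Of all genes tested, 17.4% were higher and 15.6% lower in GDel2 than in wildtype. Among the 14 members with CACGTG, 2 were higher and 4 lower in GDel2 than in wildtype, with a median log2 fold change of -0.08. Among the 25 members with a promoter window but without CACGTG, 4 were higher and 10 lower, with a median of -0.21. These are descriptions of letters in a window, and binding was not measured by these libraries.

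In wildtype cells, the levels per transcript length (TPM) spanned a wide range. Progranulin (Grn, a secreted and lysosomal cofactor precursor) was highest at 131 TPM, followed by Lamp1, a major glycoprotein of the lysosomal membrane, at 117, the tetraspanin Cd63 at 69 and the cholesterol carrier Npc2 at 50.3. Another 26 members lay between 10 and 50 TPM and 11 between 1 and 10. Gpnmb, a glycoprotein of melanosomes and lysosomes, at 0.493 TPM, Naglu, a heparan sulfate glycosidase, at 0.463 and Ctsh at 0.0367 were the lowest.

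Tfe3 (ENSMUSG00000000134, chrX:7762530-7775202 in GRCm38.p6) starts 31467 bases beyond the end of Praf2. Its level was 110, 97.5 and 91.7 CPM in wildtype, 72.4 and 75 CPM in GDel1, and 50.2 and 46.0 CPM in GDel2. All deletion libraries lay below all wildtype libraries, with GDel2 the lowest. Tfe3 fell 2.07-fold in GDel2 (log2 fold change -1.05 ± 0.10 SE; adjusted p = 1.77e-04, edgeR quasi-likelihood test with Benjamini-Hochberg adjustment over 15421 genes, as for all adjusted p-values unless another tool is named). In GDel1 the log2 fold change was -0.44 ± 0.10 and missed the threshold of 0.05 (adjusted p = 0.0607). Without GDel1 replicate 1 and GDel2 replicate 2, the libraries of higher mitochondrial share, the GDel1 value was -0.39. The difference between GDel2 and GDel1 passed (-0.62 ± 0.11; adjusted p = 0.0045).

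The gap between GDel1 and GDel2 depended on the unit. In TPM, Tfe3 was at 51.7, 38.4 and 34.5 in wildtype, 18.9 in each GDel1 library, and 19.2 and 16.8 in GDel2. The deletion libraries again lay below wildtype, but GDel1 and GDel2 overlapped. With limma on log2(TPM + 1), Tfe3 was lower in GDel1 (-1.08, adjusted p = 0.0359) and in GDel2 (-1.14, adjusted p = 0.00461), and the 2 deletions differed by -0.07 (adjusted p = 0.825). The length deposited for Tfe3, a mean over its transcripts in each library, was 1696 to 1794 bases in wildtype, 1903 and 2104 in GDel1, and 1874 and 1698 in GDel2. In TPM the median of all genes also sat at -0.30 in GDel1, -0.05 in GDel2 and 0.24 in GDel2 against GDel1.

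Mitf, best known for its role in melanocytes, moved the other way. It was at 63.2, 61.7 and 62.5 CPM in wildtype, 74.2 and 60.6 CPM in GDel1, and 140 and 162 CPM in GDel2. Both GDel2 libraries stood above all others, while GDel1 overlapped wildtype. Mitf rose 2.41-fold in GDel2 (1.27 ± 0.11; adjusted p = 8.78e-05) and was 2.24-fold higher there than in GDel1 (1.16 ± 0.12; adjusted p = 3.02e-04). In GDel1 the log2 fold change was 0.11 ± 0.11 (adjusted p = 0.585).

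Tfeb, the relative most often described as the master regulator of lysosomal genes, was at 25.0, 25.9 and 28.3 CPM in wildtype, 27.6 and 32.8 CPM in GDel1, and 25.7 and 21.8 CPM in GDel2. The 3 groups overlapped or lay close together, and Tfeb did not pass (0.20, adjusted p = 0.349 in GDel1; -0.15, adjusted p = 0.375 in GDel2). Without the 2 deletion libraries of higher mitochondrial share, which leaves 1 library in each deletion, its GDel1 value was 0.33. Tfec, the remaining relative, had 0 TPM in all 7 libraries. As shares of the summed TPM of the family, Tfe3 made up 69.4% ± 3.1 (SD, n = 3) in wildtype, 56.2% ± 1.73 (SD, n = 2) in GDel1 and 39.0% ± 0.374 (SD, n = 2) in GDel2. Mitf made up 15.7% ± 0.894, 21.2% ± 2.28 and 44.5% ± 3.75 in the same groups. Mitf was thus the larger share in both GDel2 libraries (41.9% and 47.2%, against 39.3% and 38.8% for Tfe3), and Tfe3 was the largest in the other 5.

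**Figure D2:**
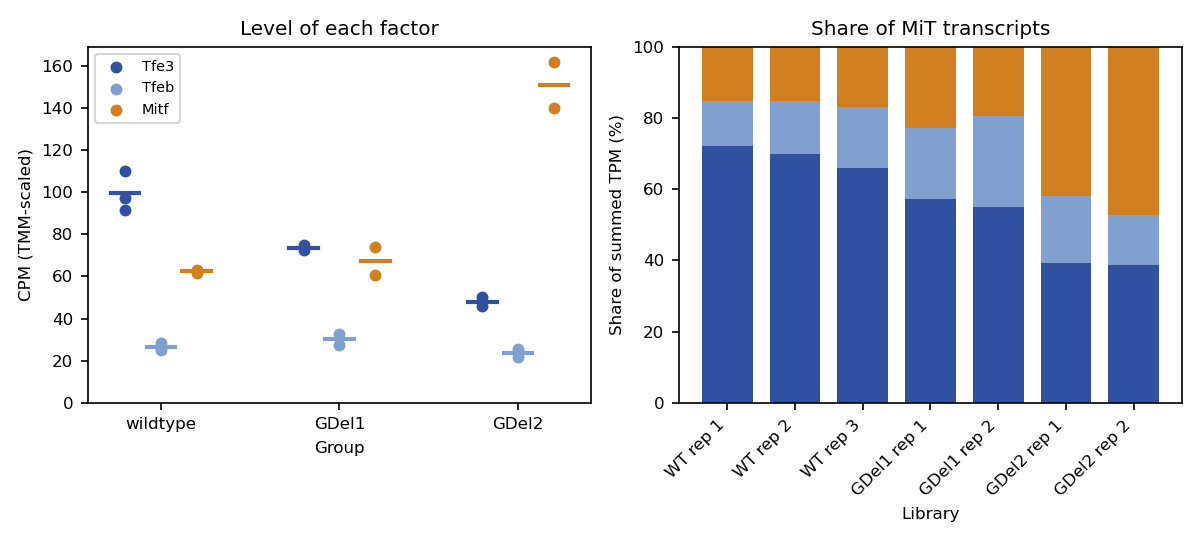
Left, TMM-scaled CPM of Tfe3, Tfeb and Mitf in each library (points) with group means (bars); right, share of each factor in their summed TPM by library. Tfe3 steps down from wildtype (99.8 CPM on average) to GDel2 (48.1 CPM), while Mitf is high in the 2 GDel2 libraries alone (140 and 162 CPM).

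Among the Flcn-Rag regulators, the 2 Rag GTPases of the list fell in GDel2. Rragc, one of the Rag subunits that presents MiT factors to mTORC1, was at 70.1, 71.4 and 69.3 CPM in wildtype, 75.7 and 75 CPM in GDel1, and 46.4 and 46.8 CPM in GDel2. GDel2 lay below every other library and GDel1 slightly above wildtype (GDel2 -0.59 ± 0.08, adjusted p = 8.12e-04; GDel1 0.10 ± 0.08, adjusted p = 0.451). Rragd, its close relative and a known MiT target, was at 51.1, 48.4 and 48.7 CPM in wildtype, 67.5 and 60.9 CPM in GDel1, and 26.9 and 26.5 CPM in GDel2. The 3 groups did not overlap, with GDel1 above and GDel2 below wildtype. Rragd fell 1.85-fold in GDel2 (-0.89 ± 0.09; adjusted p = 2.30e-04), while its GDel1 value of 0.38 ± 0.09 missed the threshold (adjusted p = 0.0607). The difference between the deletions was -1.27 ± 0.10 (adjusted p = 8.03e-05). With limma on log2(TPM + 1) Rragd lost the call in GDel2 (-0.48, adjusted p = 0.0752), and its GDel1 value was -0.15 (adjusted p = 0.483) where the median of all genes was -0.30.

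Flcn, the folliculin subunit that activates Rag signalling, was at 28.5, 30.9 and 36.5 CPM in wildtype, 35.5 and 46.1 CPM in GDel1, and 33.9 and 27.0 CPM in GDel2. Its groups overlapped (GDel1 0.35 ± 0.16, adjusted p = 0.205; GDel2 -0.07 ± 0.16, adjusted p = 0.77). Fnip1, a folliculin partner, was at 77.3, 75.6 and 80.5 CPM in wildtype, 99.2 and 91.0 CPM in GDel1, and 87.4 and 107 CPM in GDel2. All deletion libraries were above wildtype, and Fnip1 rose in GDel2 (0.32 ± 0.10; adjusted p = 0.0424), a call lost in 9 of 16 alternatives, among them DESeq2 (0.0628) and leaving out any 1 wildtype library (0.0905 to 0.139). Of 10 tested genes within 500 kb of Fnip1, 5 were higher and 1 lower, with a median of 0.55. Fnip2, its paralog, was at 95.8, 100 and 102 CPM in wildtype, 94.6 and 105 CPM in GDel1, and 94.3 and 82.4 CPM in GDel2. GDel2 was below wildtype without passing the test (-0.17 ± 0.10; adjusted p = 0.209).

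Over all members, GDel2 differed from wildtype in 21 of 43 genes tested (48.8%), 6 higher and 15 lower. Among all 15421 genes tested, 33.1% passed in this comparison, 17.4% higher and 15.6% lower. The members' median log2 fold change was -0.17, against 0.01 for all genes. With limma on log2(TPM + 1), 1 was higher (Mitf) and 10 lower, where 2368 of 15421 genes were called in all. Members are better expressed than the average gene: of genes with a mean of at least 10 CPM, 18.2% were higher and 19.2% lower, against 6 higher and 15 lower of 39 members at that level (15.4% and 38.5%). Fewer cells of a type and less RNA per cell cannot be told apart in bulk RNA.

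**Figure D3:**
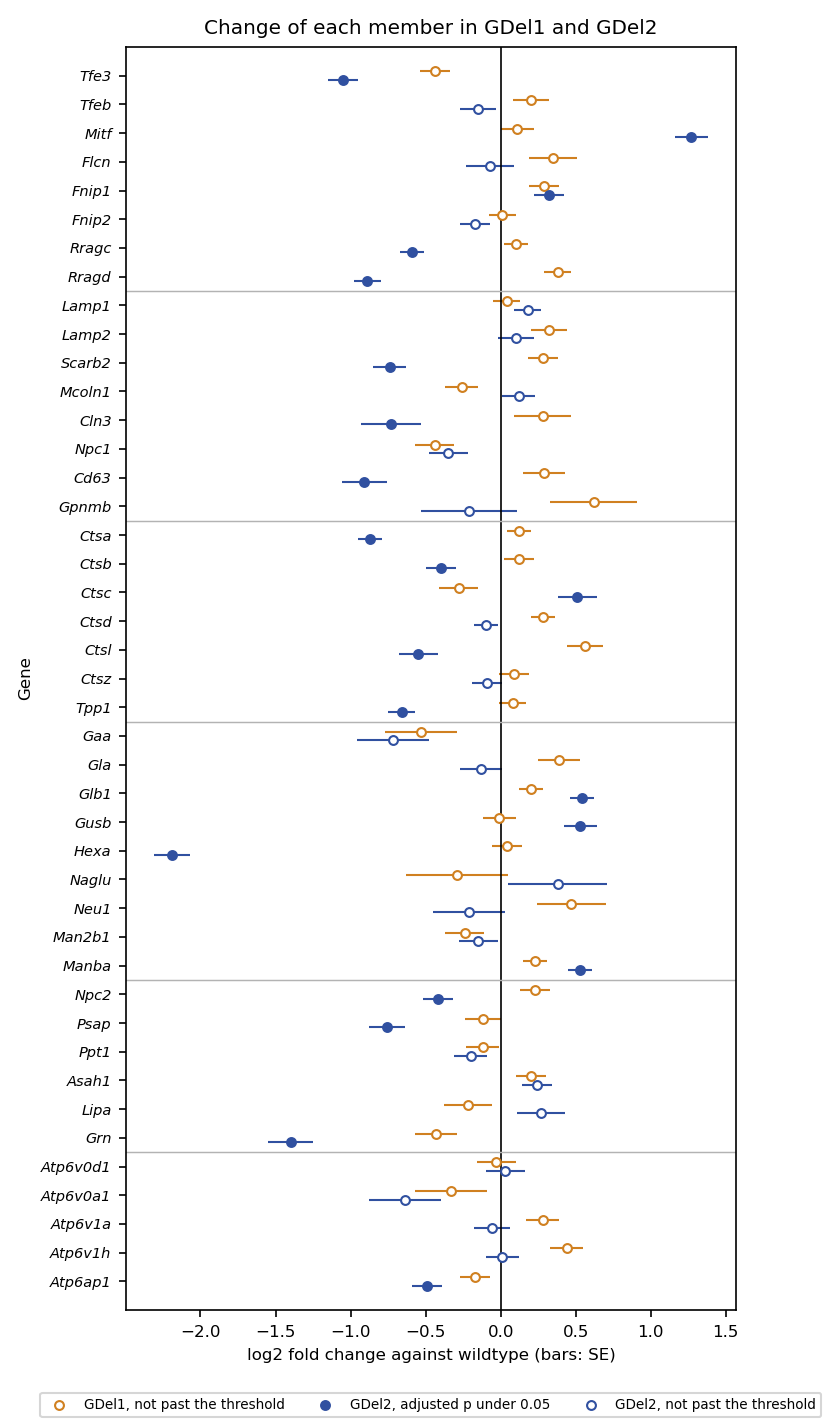
Log2 fold change of the 43 tested members against wildtype in GDel1 (orange) and GDel2 (blue), with bars of 1 SE, grouped by role from top to bottom as in the text; filled circles passed the threshold. The GDel2 values run from -2.19 (Hexa) to 1.27 (Mitf), and no GDel1 value passed.

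In GDel1 no member passed (0 of 43), where 0.376% of all genes did (58 of 15421, edgeR). At an unadjusted p under 0.05 there were 16 members, a count that was not set against all genes. DESeq2 called 4 (975 of all genes), and limma on log2(TPM + 1) called 5, all of them lower (2337 of all genes). The members' median was 0.11 against 0.00 for all genes. With limma on log2(TPM + 1) that median was -0.31 against -0.30 for all genes. The lowest adjusted p belonged to Ctsl (0.0572). Without GDel1 replicate 1 the count was 4 (2034 of 16197 genes in all), and without GDel1 replicate 2 it was 7 (856 of 15917). Leaving out both deletion libraries of higher mitochondrial share (GDel1 replicate 1 and GDel2 replicate 2), which puts 1 library in each deletion and takes the spread from wildtype, gave 19 members in GDel1 (12 higher, 7 lower) and 4262 of 16207 genes in all.

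GDel2 also differed from GDel1 directly, in 23 of 43 members (53.5%), 6 higher and 17 lower. The share was 27.7% of all genes, 14.8% higher and 12.8% lower. GDel1 and GDel2 are each compared with the same wildtype libraries, so their values against wildtype are not independent. The members' median in GDel2 against GDel1 was -0.33, against -0.01 for all genes. With limma on log2(TPM + 1), 7 were higher and 3 lower, where 3489 of 15421 genes were called in all. The members' median was then 0.05 against 0.24 for all genes. With GDel1 and GDel2 pooled as 1 group of 4, edgeR called 0 of 43 members and 0 of 15421 genes (0%). The mean of both deletions, taken within the fit of 3 groups, gave 14 members (4 higher, 10 lower) and 3149 genes. In the pooled comparison 10 members had an unadjusted p under 0.05, a count likewise not set against all genes. DESeq2 called 2 members there (948 of 15421 genes), and Tfe3 had the lowest adjusted p of the members with edgeR (0.151).

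**Figure D4:**
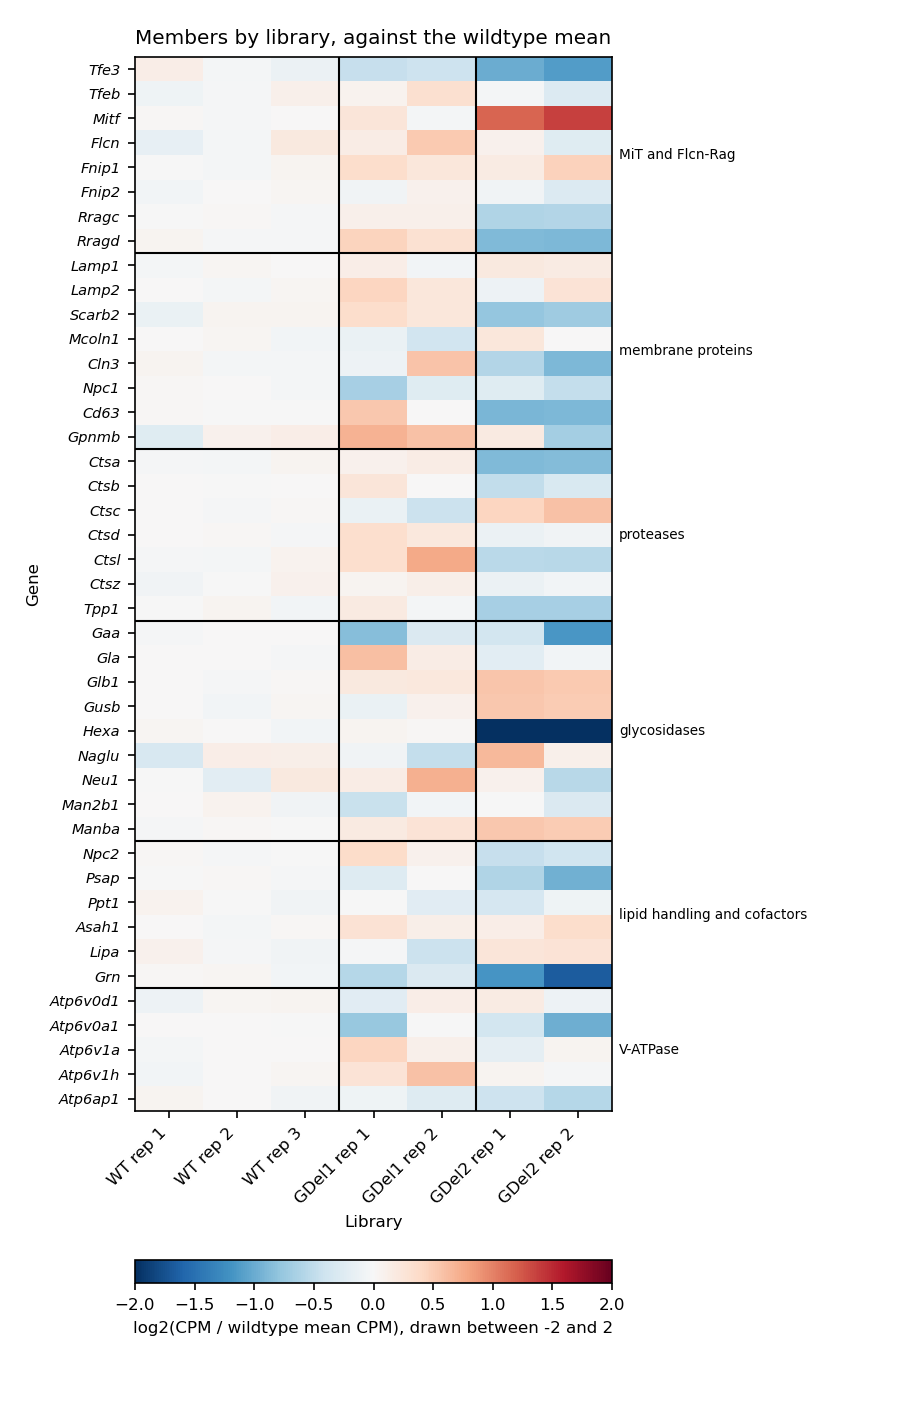
Each tested member (row) in each library (column) as log2 of its CPM over the wildtype mean, with blue lower and red higher, drawn between -2 and 2 and grouped by role. The GDel2 columns hold both the deepest blue (Hexa) and the deepest red (Mitf), and GDel1 replicates 1 and 2 differ in colour for several genes, such as Cln3 and Atp6v0a1.

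Among the 8 lysosomal membrane proteins, 3 fell in GDel2, 0 rose and 5 did not pass. This count and those of the other roles below are to be read beside the 17.4% higher and 15.6% lower of all genes. Cd63, a tetraspanin of late endosomes and lysosomes, was at 78.5, 77.2 and 76.6 CPM in wildtype, 113 and 77.5 CPM in GDel1, and 41.0 and 41.6 CPM in GDel2. The GDel2 libraries were far below the rest, and the GDel1 libraries were spread apart. Cd63 fell 1.88-fold in GDel2 (-0.91 ± 0.15; adjusted p = 0.00195).

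Scarb2, the receptor that carries glucocerebrosidase to lysosomes, was at 25.1, 28.5 and 28.6 CPM in wildtype, 34.9 and 32.0 CPM in GDel1, and 16.0 and 16.8 CPM in GDel2. Its groups did not overlap, with GDel1 highest and GDel2 lowest (GDel2 -0.74 ± 0.11, adjusted p = 0.00121; GDel1 0.28 ± 0.10, adjusted p = 0.134). Cln3, a membrane protein mutated in a juvenile neuronal storage disease, was at 18.8, 17.7 and 17.7 CPM in wildtype, 16.8 and 26.9 CPM in GDel1, and 12 and 9.76 CPM in GDel2. The fall in GDel2 (-0.73 ± 0.20; adjusted p = 0.022) was lost without any 1 of the wildtype or GDel2 libraries (0.0548 to 0.165). Lamp1 was at 359, 377 and 368 CPM in wildtype, 404 and 355 in GDel1 and 420 and 413 in GDel2, and did not pass (GDel2 0.18 ± 0.09, adjusted p = 0.152). Lamp2, the other main membrane glycoprotein, had a GDel2 value of 0.10 (adjusted p = 0.563).

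Mcoln1, a lysosomal calcium channel, was at 42.6, 43.8 and 40.7 CPM in wildtype, 38.5 and 32.5 in GDel1, and 49.6 and 42.5 in GDel2. It was below wildtype in GDel1 and overlapped it in GDel2, and only the difference between the deletions passed (0.38 ± 0.12; adjusted p = 0.0481), a call lost in 9 of 14 alternatives. Npc1, the membrane cholesterol transporter, ranged from 54.0 to 56.7 CPM in wildtype and from 35.0 to 46.9 CPM in the 4 deletion libraries. All deletion libraries lay below wildtype, yet neither deletion passed (GDel1 -0.44, adjusted p = 0.0948; GDel2 -0.35, adjusted p = 0.07). Gpnmb, at 0.867 to 2.25 CPM, did not pass.

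Of 7 proteases tested, 4 fell and 1 rose in GDel2. Ctsa, a carboxypeptidase that also protects galactosidase and neuraminidase, was at 96.5, 96.1 and 102 CPM in wildtype, 104 and 109 CPM in GDel1, and 53.4 and 53.9 CPM in GDel2. The GDel2 libraries were nearly equal and well below all others, a 1.83-fold fall (-0.87 ± 0.08; adjusted p = 1.41e-04).

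Tpp1, a tripeptidyl peptidase, was at 112, 117 and 109 CPM in wildtype, 128 and 110 CPM in GDel1, and 71.6 and 71.1 CPM in GDel2, and fell 1.58-fold (-0.66 ± 0.09; adjusted p = 9.38e-04). Ctsl, a cysteine protease, was at 64.5, 63.8 and 68.7 CPM in wildtype, 82.8 and 111 CPM in GDel1, and 45 and 44.7 CPM in GDel2. Its groups stood on opposite sides of wildtype: GDel1 was higher by 0.56 ± 0.12 without passing (adjusted p = 0.0572), GDel2 was lower (-0.55 ± 0.13; adjusted p = 0.0105), and the difference was -1.11 ± 0.14 (adjusted p = 6.62e-04). The GDel2 call was lost without GDel2 replicate 1 (0.0593), without GDel2 replicate 2 (0.0687) and with limma on log2(TPM + 1) (0.268).

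Ctsb, another cysteine protease, was at 135, 134 and 136 CPM in wildtype, 160 and 135 CPM in GDel1, and 96.4 and 109 CPM in GDel2 (GDel2 -0.40 ± 0.10, adjusted p = 0.0156). That call was lost without any 1 wildtype library (0.0549 to 0.0571) or without GDel2 replicate 1 (0.0745). Ctsc, an exopeptidase that activates serine proteases of immune cells, went the other way, from 14.3, 14 and 14.6 CPM in wildtype and 13.1 and 10.6 CPM in GDel1 to 19.3 and 21.5 CPM in GDel2. Both GDel2 libraries were above all others (0.51 ± 0.13; adjusted p = 0.014). That rise was lost without wildtype replicate 1 (0.0503), wildtype replicate 2 (0.0568) or GDel2 replicate 2 (0.11), and with limma on log2(TPM + 1) (0.258). Ctsd, the main aspartic protease, was at 115, 117 and 113 CPM in wildtype, 145 and 133 in GDel1 and 106 and 109 in GDel2. The difference between the deletions passed (-0.37 ± 0.09; adjusted p = 0.0141) while neither deletion passed against wildtype (0.28 in GDel1, adjusted p = 0.0857; -0.10 in GDel2, adjusted p = 0.402). Ctsz, a carboxypeptidase, had a GDel2 value of -0.09 (adjusted p = 0.524).

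The largest log2 fold change in GDel2 among the 43 tested members was that of Hexa (ENSMUSG00000025232, chr9:59539540-59565109), the alpha subunit of beta-hexosaminidase, which trims gangliosides. It was at 63.6, 62.3 and 59.4 CPM in wildtype, 64.5 and 62.6 CPM in GDel1, and 15.1 and 12.1 CPM in GDel2. GDel1 overlapped wildtype and GDel2 stood far below both. The log2 fold change was -2.19 ± 0.12 in GDel2 (adjusted p = 9.89e-06) and 0.04 ± 0.10 in GDel1 (adjusted p = 0.844), and the difference between the deletions was -2.23 ± 0.12 (adjusted p = 1.66e-05). Its nearest neighbours, named after their values were seen, were Arih1 at -0.30 (adjusted p = 0.0613) and Parp6 at -0.57 (adjusted p = 0.00706).

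The other glycosidases that passed in GDel2 rose, so that of 9 measured 3 rose, 1 fell and 5 did not pass. That was 33.3% higher and 11.1% lower, against 17.4% and 15.6% of all genes. Glb1, beta-galactosidase, was at 55.1, 54.2 and 55.7 CPM in wildtype, 62.7 and 63.9 CPM in GDel1, and 80.6 and 78.9 CPM in GDel2. The groups did not overlap, with wildtype lowest and GDel2 highest (GDel1 0.20 ± 0.08, adjusted p = 0.157; GDel2 0.54 ± 0.08, adjusted p = 0.00114). Manba, beta-mannosidase, had the same order, at 93.5, 96.7 and 94.3 CPM in wildtype, 107 and 114 CPM in GDel1, and 138 and 135 CPM in GDel2 (GDel2 0.53 ± 0.08, adjusted p = 0.00121). Gusb, beta-glucuronidase, was at 14.7, 14.2 and 15.1 CPM in wildtype, 13.4 and 15.6 CPM in GDel1, and 21.4 and 20.9 CPM in GDel2, with GDel1 on both sides of wildtype (GDel2 0.53 ± 0.11, adjusted p = 0.00729). All 3 rises missed the threshold with limma on log2(TPM + 1) (adjusted p = 0.100, 0.316 and 0.188).

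Gla, alpha-galactosidase on chromosome X, was at 23.8, 23.7 and 23.3 CPM in wildtype, 36.0 and 26.2 in GDel1, and 20.4 and 22.8 in GDel2. It lay above wildtype in GDel1 and below it in GDel2, and passed only between the deletions (-0.52 ± 0.15; adjusted p = 0.0337; lost in 8 of 14 alternatives). Gaa, which breaks down glycogen, was at 45.4, 46.6 and 46.6 CPM in wildtype, 25.7 and 38.0 in GDel1, and 35.7 and 20.7 in GDel2. Every deletion library was below wildtype, but the replicates of each deletion lay far apart, the lower one being that of higher mitochondrial share, and neither deletion passed (GDel2 -0.72 ± 0.24, adjusted p = 0.0587). Neu1, Man2b1 and Naglu did not pass, with GDel2 values of -0.21, -0.15 and 0.38.

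Of 6 genes of lipid handling and cofactors, 3 fell and 0 rose in GDel2. Grn (ENSMUSG00000034708, chr11:102430507-102436809) was at 161, 163 and 153 CPM in wildtype, 107 and 130 CPM in GDel1, and 70.3 and 50.2 CPM in GDel2. The 3 groups did not overlap, stepping down from wildtype to GDel1 to GDel2 as Tfe3 did. Grn fell in GDel2 (-1.40 ± 0.15; adjusted p = 2.77e-04), was at -0.43 ± 0.14 in GDel1 (adjusted p = 0.121), and was lower in GDel2 than in GDel1 (-0.97 ± 0.16; adjusted p = 0.00282). With limma on log2(TPM + 1) the GDel1 value was -1.20 (adjusted p = 0.0359) and the deletions differed by -0.42 (adjusted p = 0.247).

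Psap, the precursor of the saposins that help degrade sphingolipids, was at 159, 163 and 158 CPM in wildtype, 134 and 160 CPM in GDel1, and 106 and 82.6 CPM in GDel2. It fell in GDel2 (-0.76 ± 0.12; adjusted p = 0.00205), with 1 GDel1 library within the wildtype range and the other below it. Npc2, the soluble cholesterol carrier, was at 168, 164 and 165 CPM in wildtype, 213 and 177 CPM in GDel1, and 121 and 126 CPM in GDel2. GDel1 lay above and GDel2 below wildtype (GDel2 -0.42 ± 0.10, adjusted p = 0.0105, lost without GDel2 replicate 2 at 0.0505 and with limma on log2(TPM + 1) at 0.13). Npc1, its membrane partner in cholesterol export, was below wildtype in both deletions without passing. The thioesterase Ppt1 (-0.20), the ceramidase Asah1 (0.24) and the acid lipase Lipa (0.27) did not pass in GDel2.

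The proton pump that acidifies lysosomes, the V-ATPase, had 1 of 5 listed genes lower in GDel2 and 4 not past the threshold. That was 20% lower, near the 15.6% of all genes. Atp6ap1, an accessory protein of the pump encoded on chromosome X, was at 103, 98.7 and 94.5 CPM in wildtype, 93.2 and 82.4 CPM in GDel1, and 74.1 and 66.4 CPM in GDel2. Its groups did not overlap in CPM, with wildtype highest and GDel2 lowest (GDel2 -0.49 ± 0.10, adjusted p = 0.00523, lost without GDel2 replicate 2 at 0.0504 and with limma at 0.0633). Neither GDel1 against wildtype (-0.17, adjusted p = 0.308) nor GDel2 against GDel1 (-0.32, adjusted p = 0.0507) passed. In TPM the GDel1 libraries of Atp6ap1 (25.2 and 26.6) lay between those of GDel2 (28.5 and 24.1). Atp6v1h, a regulatory subunit, was at 37.8, 39.3 and 40.4 CPM in wildtype, 47.3 and 58.9 in GDel1 and 40.5 and 38.4 in GDel2, and was lower in GDel2 than in GDel1 (-0.43 ± 0.12; adjusted p = 0.0284; lost in 8 of 14 alternatives). Atp6v0a1 had 52.2 to 52.7 CPM in wildtype, 31.1 and 52.0 in GDel1 and 40.7 and 26.7 in GDel2, so the deletion library of higher mitochondrial share was the lower one in each deletion (GDel2 -0.64 ± 0.24, adjusted p = 0.0825). Atp6v0d1 (0.03) and the catalytic subunit Atp6v1a (-0.06) did not pass in GDel2.

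By library, members lay on both sides of wildtype in each deletion. Libraries of GDel1 and wildtype did not overlap for 24 of 43 members, against 43.6% of all genes, with 16 above and 8 below. For GDel2 this held for 31 of 43, against 63.2% of all genes, with 9 above and 22 below.

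Related genes outside the 44 were counted in GDel2, to be read beside the 17.4% higher and 15.6% lower of all genes; in GDel1, 0 were called in each list. Of 17 other lysosomal membrane proteins tested, 10 were lower and 2 higher (median -0.44), among them Spns1, a lysosomal lysophospholipid transporter, which went from 96.5 ± 2.5 CPM (SD, n = 3) in wildtype to 55.6 ± 4.56 (SD, n = 2), and Cd68 (-1.03, adjusted p = 0.00261). Of 27 other hydrolases and cofactors, 8 were lower and 2 higher (median -0.22). These included Galc, a galactosylceramidase (-0.79, adjusted p = 0.00219), but also Aga, an asparaginase on chromosome 8, which rose by 2.21 (adjusted p = 1.65e-04). Of 15 other V-ATPase subunits, 4 were lower and 2 higher (median -0.20), with Tcirg1 down from 16.9 CPM in wildtype to 8.5 CPM (adjusted p = 0.00112) and Atp6v0c, of the proton ring, at -0.49 (adjusted p = 0.0042).

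Genes of nutrient sensing upstream of the MiT factors changed in both directions in GDel2, with 10 of 30 lower (33.3%) and 6 higher (20%), where 15.6% and 17.4% of all genes were, and a median of -0.06. Sesn3 and Sesn2, of the amino acid and stress sensors called sestrins, fell (-1.13, adjusted p = 8.08e-05, and -0.79, adjusted p = 5.45e-04), as did Castor1, an arginine sensor (-0.77, adjusted p = 0.00344). Nprl3, of the GATOR1 inhibitor of Rag signalling, rose (1.19, adjusted p = 1.15e-04), as did Sec13, of the GATOR2 complex that opposes it (0.75, adjusted p = 0.00161). In the sorting of lysosomal enzymes by mannose 6-phosphate, the receptor M6pr, on chromosome 6, rose (0.71, adjusted p = 5.00e-04) and the receptor Igf2r fell (-0.88, adjusted p = 0.0159), with 1 of 9 higher and 2 lower.

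Melanocyte genes that Mitf is known to bind were also listed. Of the 8, Tyr, Tyrp1 and Oca2 were at 0 in all libraries. Only 2 passed the filter, and both of these fell in GDel2, where 15.6% of all genes tested were lower. With 2 genes, no pattern of the list can be read. Trpm1, a channel of melanocytes and retina, was at 52.7, 45 and 46.3 CPM in wildtype, 83.9 and 63.8 CPM in GDel1, and 13.1 and 12.4 CPM in GDel2. The groups did not overlap, with GDel1 highest and GDel2 lowest (GDel2 -1.91 ± 0.15, adjusted p = 5.85e-05; GDel1 0.62, adjusted p = 0.055). Pmel, of the melanosome matrix, went from 21.0 ± 1.38 CPM (SD, n = 3) to 15.0 ± 0.0767 (SD, n = 2) in GDel2 (-0.48 ± 0.15; adjusted p = 0.0379).

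Positions on chromosomes bear on single members. In GDel2, 51.2% of tested genes on chromosome 6 and 50.8% on chromosome 8 were higher, with medians of 0.51 and 0.44. On chromosome 11, 26.1% were higher and 14% lower (median 0.10), where 17.4% and 15.6% of all genes were. Of 6 tested genes on chromosome Y, 83.3% were lower (median -9.13). The cause of these differences between chromosomes was not tested. Mitf (chr6:97807002-98021360) lies on chromosome 6, where its single tested neighbour within 500 kb, Frmd4b, was at 0.14 (adjusted p = 0.459). Aga, M6pr and Sec13 also lie on chromosomes 6 and 8. So do the other gene that rose in the hydrolase list, Pla2g15 (chromosome 8), and both V-ATPase subunits that rose, Atp6v0e2 and Atp6v1e1 (chromosome 6). The 5 members on chromosome 8 (Lamp1, Mcoln1, Man2b1, Asah1 and Atp6v0d1) had a median of 0.12 and 0 passed. Around Tfe3, 10 of 35 tested genes within 500 kb were lower and 2 higher in GDel2, with a median of -0.19. Its neighbours, named after their values were seen, included Gripap1 at -0.18 (adjusted p = 0.532) and Ccdc120 at -0.63 (adjusted p = 0.00522). Around Grn, 7 of 23 were lower and 2 higher (median -0.12). Counting only the 26 tested members off chromosomes 6, 8, 11 and X, 4 were higher (15.4%) and 12 lower (46.2%) in GDel2, with a median of -0.28. On single autosomes other than 6, 8 and 11, 9.92% to 16.8% of all tested genes were higher and 13.3% to 22.4% lower.

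**Figure D5:**
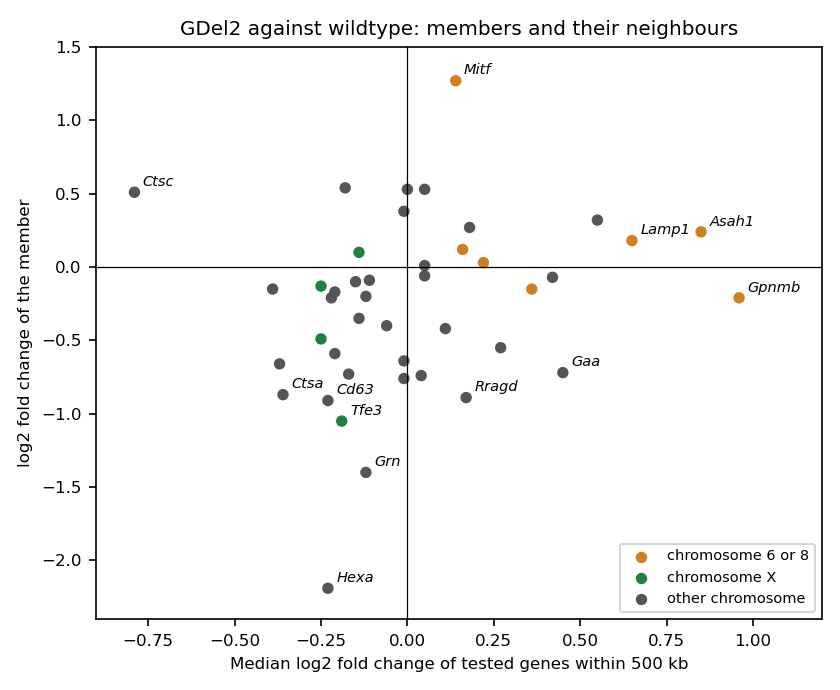
Log2 fold change of each tested member in GDel2 against wildtype (vertical) by the median of the other tested genes within 500 kb of it (horizontal), coloured by chromosome, with some members named. Hexa, Grn and Tfe3 lie far below their neighbours' medians (-0.23, -0.12 and -0.19) and Mitf above its single neighbour (0.14). Wider gaps than that of Tfe3 occur for other members, such as Rragd (-0.89 against 0.17) and Gaa (-0.72 against 0.45).

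Markers of other cell types and RNA composition moved in part with these groups. Of 8 fibroblast feeder markers, Col3a1, Postn and Dcn were at 0, and the summed level of the list, nearly all from Vim, was 311 to 328 CPM in wildtype, 267 and 284 in GDel1, and 163 and 190 in GDel2. Vim fell in GDel2 (-0.88, adjusted p = 2.77e-04), while Thy1, a low-level marker of the same list, rose (1.42, adjusted p = 0.0105). Macrophage markers, of interest because macrophages are rich in lysosomes, summed to 0.312 to 1.05 CPM, with Adgre1, Tyrobp and Lyz2 at 0. Primitive endoderm markers summed to 113 to 118 CPM in wildtype, 72.8 and 99.2 in GDel1, and 106 and 78.9 in GDel2. Of these, Col4a1 (1.39, adjusted p = 5.46e-04) and Gata4 (1.39, adjusted p = 0.0201) were higher and Lama1 (-0.50, adjusted p = 0.0474) lower in GDel2. Within each deletion, 18 of 43 members (41.9%, against 33.4% of all genes) were lower in the library of higher mitochondrial share in both deletions, and 15 (34.9%, against 30.7%) were higher in both. The part of these differences in the results was not tested. Without those 2 libraries, which leaves 1 library in each deletion, the members' median in GDel2 against wildtype was -0.12, against 0.00 for all genes. In that fit Tfe3 was at -0.98, Mitf at 1.16, Hexa at -2.03 and Grn at -1.17.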

How the data were processed

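RNA of 7 libraries was used, and the other 59 of 66 samples of the series were not analysed here. The labels describe total RNA depleted of ribosomal RNA and made into directional libraries, and the strand setting of the counting step is not stated there. The submitters' processing notes name STAR, RSEM and the mm10 build. The deposited tables hold RSEM expected counts per gene, estimated by the authors' tool and not scaled for depth. The authors also deposited TPM, which divides by effective transcript length and sums to the same total in every library, and FPKM, which was not used here, and the deposited gene lengths, other values in bases, are means over transcripts per library.

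Expected counts were rounded. Genes were kept with filterByExpr of edgeR (minimum count 10, minimum total 15), which left 15421 genes with 99.9% of counts. Fits used edgeR 4.0.16 in R 4.3.3 with TMM factors and its quasi-likelihood F test (robust), in 1 fit of 3 groups, with Benjamini-Hochberg adjustment over all genes and a threshold of 0.05. GDel1 and GDel2 pooled were tested in a fit of 2 groups. CPM values are TMM-scaled. Alternatives were DESeq2 1.42.0, limma 3.58.1 on log2(TPM + 1), other filters and scalings, a replicate block, other sets of libraries in the fit and leaving out each library. Depth was 12316853 to 18762704 expected counts per library. Tested on simulated data for GDel2 against wildtype, with 200 of 15421 genes set 2-fold apart, the fit recovered 79%. Of its calls there, 6.51% were genes not set apart. In the data 33.1% of genes were called, far more than were changed in the simulation, so it does not give the recovery in the data.

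The members and lists were chosen by role, with earlier results of these data known. Named genes are all members, Praf2 and, from each other list, the 2 of highest mean TPM and up to 3 called genes of largest change per direction, from which the text takes its examples; the result for some of these is not reported here. Members past the threshold in any comparison, and the MiT and Flcn-Rag genes, have every library value. Symbols were matched for 55141 of 55487 Ensembl identifiers, and positions and promoters come from RefSeq tables of GRCm38.p6.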

Additional observations from a re-analysis of the deposited data

Results flagged for a closer look

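For 23 members the level differed between GDel1 and GDel2 by the test of the difference itself, given here as the log2 difference of GDel2 from GDel1. Both groups have the same genotype label, and the cause of their differences was not tested. It was below -1 for Hexa (-2.23), Rragd (-1.27), Cd63 (-1.20), Ctsl (-1.11), Scarb2 (-1.02) and Cln3 (-1.02). Between -1 and -0.60 lay Ctsa (-0.99), Grn (-0.97), Tpp1 (-0.74), Rragc (-0.69), Npc2 (-0.66), Psap (-0.64) and Tfe3 (-0.62). Smaller falls passed for Ctsb (-0.52), Gla (-0.52), Atp6v1h (-0.43) and Ctsd (-0.37). GDel2 was higher than GDel1 for Mitf (1.16), Ctsc (0.79), Gusb (0.54), Mcoln1 (0.38), Glb1 (0.33) and Manba (0.30). Across all genes 27.7% passed in this comparison, and in 14 alternatives 5 of these 23 calls held every time, those of Mitf, Cd63, Ctsa, Ctsc and Hexa.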

How the results depend on the processing

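Counts of members past the threshold depended on the fit, and the cause was not tested. In GDel1 against wildtype, 0 members passed with edgeR, against 10 with no filter on low counts, 4 with DESeq2, 5 with limma on log2(TPM + 1), 0 to 7 on leaving out 1 library, and 19 without the 2 deletion libraries of higher mitochondrial share, a setting chosen after seeing the data. In GDel2 against wildtype the count was 21, with 11 under limma, 15 to 25 on leaving out 1 library and 27 without those 2 libraries. In GDel2 against GDel1 it was 23, with 10 under limma and 17 to 26 on leaving out 1 library. For the pooled deletions it was 0, with 14 for the mean of both deletions in the fit of 3 groups, 2 with DESeq2 and 0 on leaving out any 1 library; where this left 1 library in a group, that library was assumed to vary like the others. Of 21 calls in GDel2 against wildtype, 10 held in all 16 alternatives, those of Tfe3, Mitf, Rragc, Scarb2, Cd63, Ctsa, Tpp1, Hexa, Psap and Grn. Over all genes the calls ranged from 1 to 4262 in GDel1 (58 with edgeR as reported), 2296 to 6578 in GDel2 (5099), 2235 to 5908 in GDel2 against GDel1 (4268) and 0 to 3149 for the pooled deletions (0). The median of all genes under limma on TPM was -0.30 in GDel1, -0.05 in GDel2, 0.24 in GDel2 against GDel1 and -0.16 for the pooled deletions, and the members' medians were -0.31, -0.19, 0.05 and -0.25. On that shifted scale Manba was at -0.55 in GDel1 (adjusted p = 0.0441), below 0 where edgeR had it above, and Ctsd in GDel2 against GDel1 was at 0.00 (adjusted p = 0.991), below the median of all genes; signs of values past the threshold in neither fit were not compared. Replicate numbers are shared across groups without a label that they mark a pair. With the number as a replicate block, members called were 0 in GDel1, 14 in GDel2, 13 in GDel2 against GDel1 and 0 for the pooled deletions. The GDel2 calls against wildtype lost with the block were those of Fnip1, Cln3, Ctsb, Ctsc, Ctsl, Gusb and Npc2 (adjusted p = 0.0671 to 0.164, edgeR). With TCACGTGA in place of CACGTG, 7 members held the motif in place of 14. With 2 libraries in each deletion, the number of libraries limits precision.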
